A study of Mus musculus with 20 samples.

Results

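Basal forebrain cholinergic neuron genes were followed through the cortex RNA of aged APOE4 mice. The 7 genes are Chat, Slc18a3, Slc5a7, Ache, Lhx8, Ngfr and Gbx1. They were chosen by name for their roles in acetylcholine synthesis, vesicle loading, choline uptake, breakdown and cholinergic lineage, with earlier results of these data known. All 7 were found among the 23413 gene names counted in the 20 libraries. All mice carried the humanized APOE4 allele (Apoe tm1.1(APOE*4)Adiuj, on the B6(SJL) background), were housed individually and were 22 months old when the cortex was frozen. Feeding had begun at 10 months and lasted 12 months, with a control diet (CD, called SD in the sample labels) or a ketogenic diet (KD). Females comprised 5 CD and 4 KD mice and males 5 CD and 6 KD mice, each with 1 library of total RNA, and no mouse with another APOE allele was in the comparison. Library numbers fall into 2 series of 10, each group having libraries in both.

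Acetylcholine is made from choline and acetyl-CoA by choline acetyltransferase, loaded into vesicles by the vesicular acetylcholine transporter, and cleared at the synapse by acetylcholinesterase, after which the choline is taken up again by a high-affinity transporter. The cholinergic input of the cortex comes mainly from neurons of the basal forebrain, which lie beneath the cortex and carry neurotrophin receptors. The striatum holds cholinergic interneurons of the same developmental origin, whereas the cortex itself has only scattered cells that express Chat, many of them interneurons with vasoactive intestinal peptide.

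Chat and Slc18a3 form one locus, and their upstream sequences are shown because these genes have to be read together in the counts. In GENCODE M21 (GRCm38), Chat lies on the minus strand at chr14:32408203-32465989. Slc18a3, at chr14:32462438-32464850 on the same strand, lies within the Chat gene, and the exons of the 2 genes share no base. The bases just upstream of each start, up to 250 and with every annotated exon left out, were taken from RefSeq sequence of GRCm38.p6, which held 6 of the 7 genes, all but Gbx1. Those of Slc5a7 and Lhx8, the members with the highest level and the largest fold difference in females, are given beside them. They are written 5′ to 3′ on the strand of the gene, with capitals marking TGACG, the half-site of a cyclic AMP response element, on either strand (CGTCA), and the E-box CACGTG, motifs that do not overlap each other here.
Chat, chr14:32465990-32466159, minus strand: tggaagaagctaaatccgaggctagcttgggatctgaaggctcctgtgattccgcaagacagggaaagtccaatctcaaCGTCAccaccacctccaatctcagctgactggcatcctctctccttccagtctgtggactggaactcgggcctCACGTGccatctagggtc
Slc18a3, chr14:32464851-32465041, minus strand: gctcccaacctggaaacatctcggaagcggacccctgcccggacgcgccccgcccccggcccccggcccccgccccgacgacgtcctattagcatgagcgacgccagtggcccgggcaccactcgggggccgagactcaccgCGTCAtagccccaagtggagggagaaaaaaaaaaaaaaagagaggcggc
Slc5a7, chr17:54299035-54299284, minus strand: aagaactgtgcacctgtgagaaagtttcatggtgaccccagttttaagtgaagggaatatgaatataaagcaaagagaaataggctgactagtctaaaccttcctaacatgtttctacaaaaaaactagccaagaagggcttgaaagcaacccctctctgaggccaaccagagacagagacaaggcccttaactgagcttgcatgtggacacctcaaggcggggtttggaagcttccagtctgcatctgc
Lhx8, chr3:154330660-154330810, minus strand: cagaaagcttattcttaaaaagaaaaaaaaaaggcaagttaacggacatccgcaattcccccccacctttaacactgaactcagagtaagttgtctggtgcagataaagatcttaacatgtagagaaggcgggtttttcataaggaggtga
The stretches of Chat and Slc18a3 each held 1 TGACG, and that of Chat 1 CACGTG, whereas those of Slc5a7 and Lhx8 held neither. Of 32851 RefSeq promoters, 17.8% held TGACG and 6.02% held CACGTG within the same 250 bases upstream, on either strand. TAATTA, a core bound by homeodomain proteins such as Lhx8 and Gbx1, was in 4.84% of all promoters and in none of the 6 members. GC content of the 250 bases ran from 45.6% in Slc5a7 and 46% in Lhx8 to 70.4% in Ngfr and 73.6% in Ache, against a median of 52.4% over all promoters. The other members lie at chr17:54273590-54299034 (Slc5a7), chr5:137287519-137294466 (Ache), chr3:154306294-154330659 (Lhx8), chr11:95568818-95587735 (Ngfr) and chr5:24502757-24527202 (Gbx1). Ache is on the plus strand and the others on the minus strand. The exons of Ache share 98 bases with those of Gm42456 on the opposite strand, and since the strand counted is not given in the sources used here, its count is to that extent uncertain. The gene Gm2990 likewise runs antisense through the Chat gene, without shared exon bases.

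Total counts per library lay between 21015275 and 29109990 for series 1, and between 12207161 and 17697342 for series 2, so 3 counts correspond to between 0.103 and 0.246 CPM (counts scaled to the library total). Every pair of mice of one group differed by more than counting error, so each was kept as its own replicate. Xist and the Y-linked gene Ddx3y followed the labelled sex, apart from 14.0 CPM of Ddx3y in CD female E228, which had 545 CPM of Xist. The labelled tissue was checked with Slc17a7 and Tbr1, markers of cortical excitatory neurons. Slc17a7 was lowest in CD female E249 (149.7 CPM) and in KD females E68 (168 CPM), E61 (189 CPM) and E207 (195 CPM), followed by CD female E265 at 201 CPM, and reached 607 CPM in E64. Tbr1 was at 40.3, 37.3, 28.1 and 43.0 CPM in those 4 libraries, and between 38.7 and 98.9 CPM in the other 16. KD male E59, with 406 CPM of Slc17a7, stood apart in another marker, having 2187 CPM of Ttr, the transthyretin made by choroid plexus, against at most 41.2 CPM elsewhere.

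Transcripts of acetylcholine synthesis, vesicle loading and choline uptake were concentrated in these same 5 libraries. Chat, which encodes choline acetyltransferase, was at 20.4 CPM in E61, 16.6 CPM in E68 and 14.1 CPM in E207, and at 0.299 CPM in the remaining KD female, E227. In CD females it was at 6.72 CPM in E249 and at 0.143 CPM in E62, 0.324 CPM in E67, 0.0794 CPM in E265 and 0.226 CPM in E228. CD males had 0.520 CPM in E51, 0.962 CPM in E58, 0.564 CPM in E66, 0.126 CPM in E251 and 0.402 CPM in E264, and KD males from 0.0360 to 11.8 CPM (E59) with a median of 0.226. A gap therefore separated 5 libraries from the other 15, the highest of which was E58, and it ran through 3 of the 4 groups. In bulk RNA, a change in the number of cholinergic cells in the sample cannot be told apart from a change in RNA per cell.

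**Figure D1:**
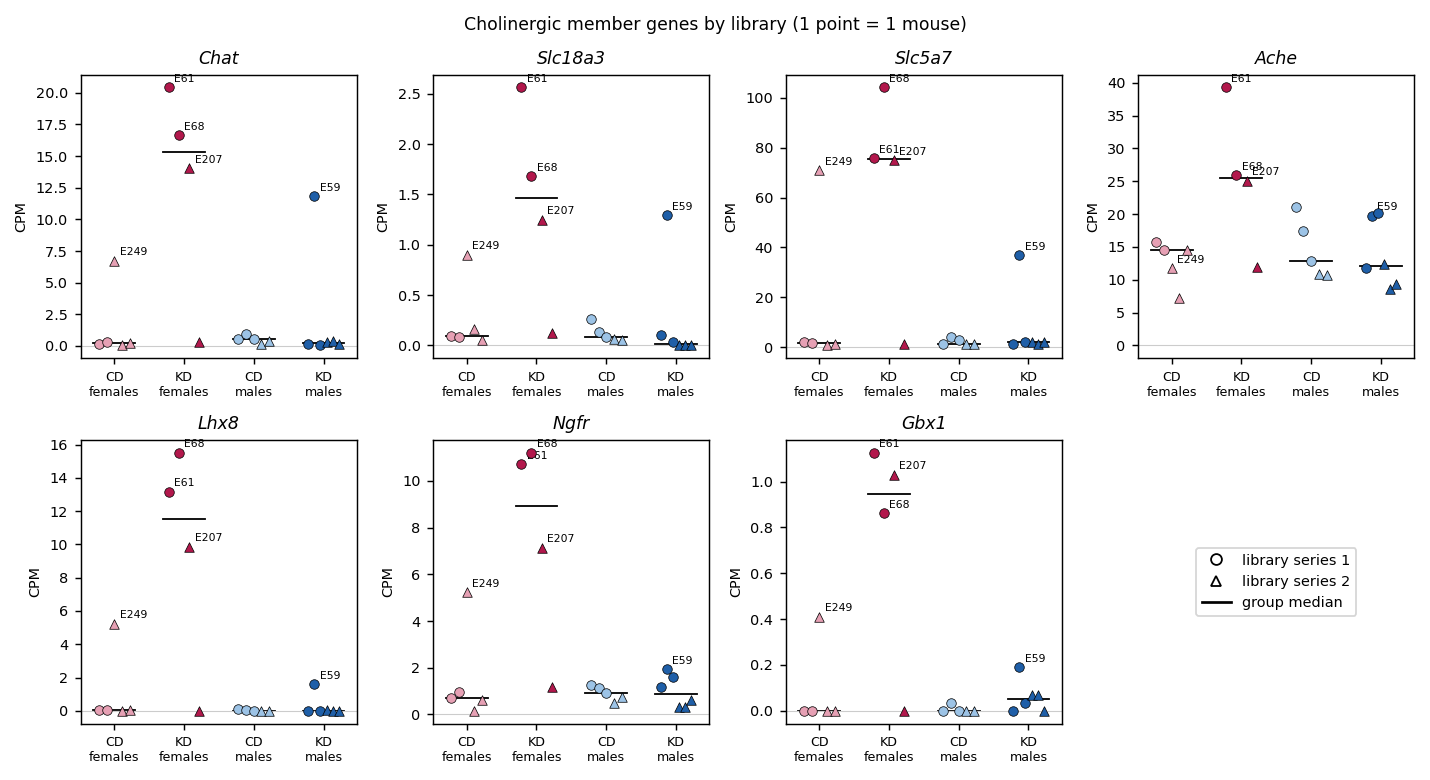
Level of each cholinergic gene in CPM (vertical axes, linear, each with its own scale) in the 20 libraries by diet and sex, 1 point per mouse, with circles for library series 1, triangles for series 2 and a line at the group median. E61, E68, E207, E249 and E59 lie above all other mice in 6 of the 7 genes, while Ache is spread over all groups, and the remaining KD female, E227, lies among the low libraries in every panel.

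Slc18a3, the vesicular acetylcholine transporter encoded within the Chat gene, had few reads, and its 5 highest libraries were those of Chat. It was at 2.56 CPM in E61, 1.68 CPM in E68, 1.25 CPM in E207 and 0.120 CPM in E227. CD females had 0.901 CPM in E249, 0.159 CPM in E265, 0.0952 CPM in E62, 0.0811 CPM in E67 and 0.0565 CPM in E228. In CD males the values were 0.260, 0.137, 0.0806, 0.0628 and 0.0575 CPM, and KD males ran from 0 CPM (3 mice) to 1.29 CPM (E59) with a median of 0.0180. The 15 lower libraries each held at most 6 reads of Slc18a3, so differences among them were not detectable at this depth.

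Slc5a7, the high-affinity choline transporter, was the most abundant member per length in the 5 libraries. It stood at 75.9 CPM in E61, 104 CPM in E68, 74.99 CPM in E207 and 1.26 CPM in E227. Among CD females, E249 reached 70.9 CPM, just below E207, while E62, E67, E265 and E228 had 2.28, 1.74, 0.715 and 1.30 CPM. CD males had 1.30, 4.09, 3.02, 1.44 and 1.32 CPM in E51, E58, E66, E251 and E264, and KD males from 1.35 to 37.0 CPM (E59) with a median of 2.04. No library of the lower 15 exceeded 4.09 CPM, that of E58, so the lowest of the 5 was at 37.0 CPM with nothing between. Scaled by exon length, the highest levels over the 20 libraries were 18.5 RPKM (CPM divided by the exon length in kilobases) for Slc5a7, 8.50 for Ache, 6.12 for Lhx8, 4.34 for Chat, 3.25 for Ngfr, 1.06 for Slc18a3 and 0.324 for Gbx1. The medians of RPKM over the 20 libraries were 2.96 for Ache and 0.362 for Slc5a7, with all other members at or below 0.306, so in the typical library Ache was the only cholinergic member with a sizeable level.

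Ache, acetylcholinesterase, is made by many cells that receive cholinergic input, and it followed the others least. KD females had 39.3 CPM in E61, 25.9 CPM in E68, 25.1 CPM in E207 and 12.0 CPM in E227. CD females had 15.8 CPM in E62, 14.5 CPM in E67, 11.8 CPM in E249, 7.23 CPM in E265 and 14.5 CPM in E228. CD males had 21.1, 17.4, 12.9, 10.9 and 10.8 CPM, and KD males from 8.59 to 20.2 CPM with a median of 12.0. The KD females E61, E68 and E207 were above all other mice, but E249 was not raised, and the highest KD male was E64 rather than E59.

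Among the lineage genes, Lhx8, a LIM homeodomain factor needed for the cholinergic fate in the forebrain, separated the libraries most sharply. It was at 13.2 CPM in E61, 15.5 CPM in E68 and 9.86 CPM in E207, with no read in E227. CD females had 5.24 CPM in E249, 1 read each in E62, E67 and E228, and none in E265. CD males had 2 reads in E51, 2 in E58 and none in the other 3, and among KD males E59 had 1.60 CPM (42 reads) and the other 5 mice had at most 1 read. Of 947 Lhx8 reads in all libraries, 939 (99.2%) came from the 5 libraries, against 24.9% of the reads of all genes. The shares were 94.8% for Gbx1, 93.6% for Chat, 92.4% for Slc5a7, 86.1% for Slc18a3, 73.0% for Ngfr and 38.0% for Ache. A count of 0 in a library allows up to 3 counts, and these limits cover counting error only.

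Gbx1, a homeobox gene of the developing basal forebrain and spinal cord, had 77 reads in all. KD females had 1.13 CPM in E61, 0.862 CPM in E68, 1.03 CPM in E207 and no read in E227, and in CD females all 5 reads came from E249. E59 had 5 reads, and each of the other 10 males at most 1. Its level in KD females apart from E227 thus stood above every other mouse, on 14 to 29 reads per library.

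Ngfr, the low-affinity neurotrophin receptor that marks cholinergic neurons of the basal forebrain and is also made by some glia, had a baseline in every library. It was at 10.7 CPM in E61, 11.2 CPM in E68, 7.14 CPM in E207 and 1.20 CPM in E227. CD females had 5.24 CPM in E249 and 0.714, 0.973, 0.159 and 0.622 CPM in E62, E67, E265 and E228. In CD males it ran over 1.26, 1.13, 0.927, 0.502 and 0.747 CPM, and in KD males from 0.338 to 1.94 CPM with a median of 0.891. Here E59, the highest male, was close to KD male E64 at 1.62 CPM and to the other male libraries, unlike its level of Chat.

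Ordered by group median, KD females came first for every member, for example at 15.3 CPM for Chat against 0.520 CPM in CD males and 0.226 CPM in both CD females and KD males. Because E227 lay among the low libraries, the range of KD females overlapped that of each other group for all 7 genes. The SDs of KD and CD females and of KD males were wide, each of these groups holding both high and low libraries of Chat, which averaged 12.9 ± 8.77 CPM in KD females (SD, n = 4), 1.498 ± 2.92 CPM in CD females (n = 5), 2.15 ± 4.75 CPM in KD males (n = 6) and 0.515 ± 0.303 CPM in CD males (n = 5). For Ache they were 25.6 ± 11.1, 12.8 ± 3.42, 13.7 ± 5.10 and 14.6 ± 4.51 CPM in the same order. For Ngfr they were 7.56 ± 4.61, 1.54 ± 2.09, 1.004 ± 0.684 and 0.913 ± 0.301 CPM.

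The question of the diet within females was tested with edgeR's quasi-likelihood test in one fit of all 20 libraries with the library series as a term, calling a gene at a Benjamini-Hochberg false discovery rate (FDR) of 0.1 and a 1.5-fold change. All 6 members that passed the expression filter had higher fitted levels in KD than CD females, and 0 of the 6 were called, against 0.0447% of the 15660 genes tested. Chat, Slc18a3 and Lhx8 passed that filter only through the libraries in which they were high, and Gbx1 did not pass it. At an unadjusted p under 0.05, 3 of the 6 passed, beside 11.4% of all genes. The edgeR likelihood ratio test and the DESeq2 Wald test each called 1, Ache, beside 220 and 253 of the 15660 genes. DESeq2 gave a p for Ache alone in each comparison, and none for the other 5.

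SE here is an approximation, the absolute log2 fold change divided by the square root of the F statistic. It is unreliable for very small fold changes. Ache had the smallest difference and the smallest error, with a log2 fold change of 0.84 (SE 0.224, edgeR adjusted p = 0.194). For Ngfr it was 1.99 (SE 0.698, edgeR adjusted p = 0.271), for Slc18a3 2.21 (SE 1.05, adjusted p = 0.435) and for Lhx8 2.97 (SE 1.45, adjusted p = 0.454). The largest adjusted p-values were those of Chat and Slc5a7, at 2.60 (SE 1.38, edgeR adjusted p = 0.507) and 1.55 (SE 1.34, adjusted p = 0.757). The median log2 fold change of the 6 members was 2.10, beside 0.01 over all tested genes. For Gbx1, an exact two-sided permutation test of log2 CPM gave a difference of 2.14 between KD and CD females (p = 0.0952 over 126 splits, the smallest possible being 0.00794).

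These tests turned on single libraries. Without CD female E249, 6 of 6 tested members were called higher in KD females, while the share of all genes called rose to 6.66%, with log2 fold changes of 6.12 for Chat (edgeR adjusted p = 0.0228), 5.40 for Slc5a7 (0.0136), 7.94 for Lhx8 (0.0109) and 3.49 for Ngfr (0.00237). Without KD female E227, Ache, Ngfr and Gbx1 were called among 7 tested, beside 5.68% of all genes. These mice stood out by the very values tested, so calls made without them are no independent support.

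Within library series 1, where E61 and E68 faced E62 and E67, Ache, Lhx8, Ngfr and Gbx1 were called among 7 tested and 5.42% of all genes passed. For Ngfr the log2 fold change there was 3.65 (SE 0.343, edgeR adjusted p = 0.00154). Series 1 holds neither E249 nor E227, the mice that stood out by these values, so its calls are no independent support either. Lhx8 had 1 read in E62 and 1 in E67, and Gbx1 had 0 in both, so these genes passed the filter through the high libraries. Within series 2, where E207 and E227 faced E249, E265 and E228, none of 6 tested members was called, as was true of 0% of all genes, and the log2 fold change of Ngfr was 1.02 (SE 1.03, edgeR adjusted p = 0.834). All 6 tested members had positive fold changes in each series.

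**Figure D2:**
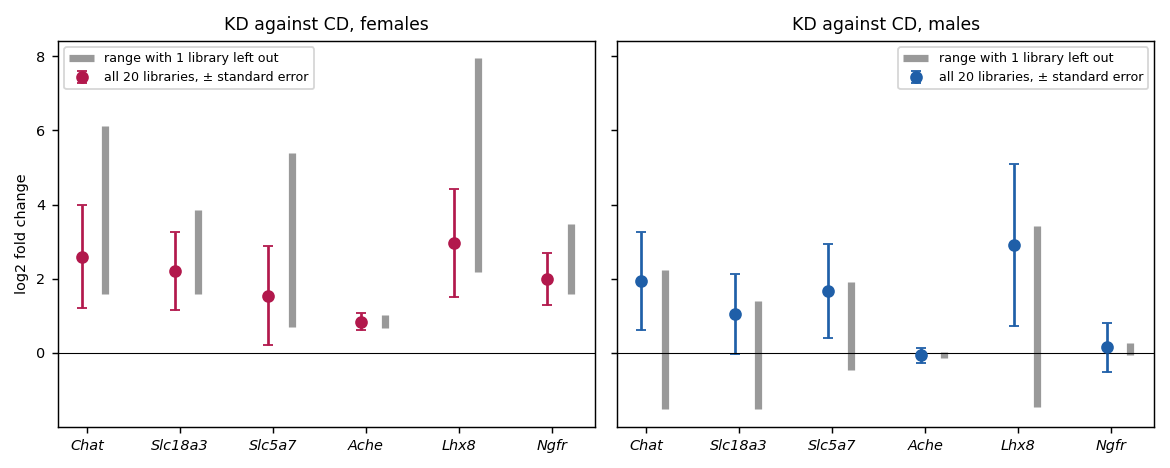
Log2 fold change of KD against CD (vertical axis) for the 6 tested members in females (left) and males (right). Points and bars give the estimate from all 20 libraries and its approximate standard error, derived from the F statistic. Grey bars give the range when 1 library was left out. In females the range stays above 0 for all 6 and reaches 7.94 for Lhx8, and in males it crosses 0 for all 6.

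In males 0 of 6 tested members were called, with 0% of all genes called and no member at an unadjusted p under 0.05, beside 3.56% of all genes. The likelihood ratio test called none, and neither did DESeq2, which gave a p for Ache alone. Each called 0 of all genes. The log2 fold changes of KD against CD males were 1.94 for Chat (SE 1.33), 1.05 for Slc18a3 (SE 1.07), 1.68 for Slc5a7 (SE 1.26), 2.92 for Lhx8 (SE 2.18), 0.15 for Ngfr (SE 0.653) and -0.06 for Ache (SE 0.202), each with an edgeR adjusted p of 0.9998. The sign rested on E59 for 5 of them: without it Chat was at -1.52, Slc18a3 at -1.51, Slc5a7 at -0.45, Lhx8 at -1.47 and Ngfr at -0.07. For Gbx1 the exact two-sided permutation test gave a difference of 0.50 in log2 CPM (p = 0.0909 over 462 splits, the smallest possible being 0.00216).

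Whether the diet difference itself differed between the sexes was tested as an interaction, and 0 of 6 members and 0% of all genes were called. It was largest for Ngfr, at 1.84 on the log2 scale (SE 0.956), while Ache, at 0.90 (SE 0.302, unadjusted p = 0.00777), was the 1 member with an unadjusted p under 0.05, beside 2.14% of all genes, and the edgeR adjusted p of both was 0.9999. The likelihood ratio test called no member, and neither did DESeq2, which gave a p for Ache alone. Each called 1 of all 15660 genes.

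Females compared with males, averaged over the diets, had higher fitted levels of all 6 tested members, each at an unadjusted p under 0.05 (13.6% of all genes), and 0 of 6 were called, beside 0.134% of all genes. The log2 differences were 4.89 for Lhx8 (SE 1.21, edgeR adjusted p = 0.140), 3.20 for Slc5a7 (SE 0.978, 0.199), 2.37 for Chat (SE 1.002, 0.310), 1.93 for Ngfr (SE 0.479, 0.140), 1.88 for Slc18a3 (SE 0.774, 0.301) and 0.41 for Ache (SE 0.151, 0.261). The likelihood ratio test called 3 members, beside 286 of all 15660 genes. DESeq2 called 0 members, beside 212 of all genes, but gave a p for Ache alone and so says nothing of the other 5. Of the 5 libraries with most Chat, 4 were from females and 1, E59, from a male. Without E59, Chat, Slc18a3, Slc5a7, Lhx8 and Ngfr were called higher in females, beside 1.32% of all genes. E59 is the male that stood out by these values, so those calls are no independent support.

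Proportions between the members were compared in the 5 libraries. Among these libraries, Slc18a3 and Ache had similar ratios to Chat within counting error, and Slc5a7, Lhx8 and Ngfr did not. For Ache this held in the 5 libraries only. Among the other 15, Ache reached 21.1 CPM where Chat was at most 0.962 CPM. That was above the Ache level of E249 (11.8 CPM) and of E59 (19.8 CPM). Per 100 reads of Chat, Slc18a3 had 12.5 reads in E61, 10.1 in E68, 8.90 in E207, 13.4 in E249 and 10.9 in E59. Ache was at 192, 156, 179, 176 and 167 reads in the same order. Lhx8 had 64.4, 93.3, 70.2 and 78.0 reads per 100 of Chat in E61, E68, E207 and E249, and 13.5 in E59. As a share of Lhx8 and Chat reads together, Lhx8 made up 11.9% in E59 (95% exact binomial interval 8.71 to 15.7%), and the lowest interval of the other 4 began at 35.6%. The intervals of E61 (35.9 to 42.5%) and E68 (44.6 to 51.9%) did not overlap either.

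Ngfr was likewise low beside Chat in E59, at 16.4 reads per 100 of Chat against 50.8 to 78.0 in the other 4. Its share of Ngfr and Chat reads was 14.1% in E59 (interval 10.7 to 18.1%), below the intervals of the others, which began at 28.2% or more. Slc5a7 differed in the other direction in E249, at 1056 reads per 100 of Chat against 372 in E61, 626 in E68, 534 in E207 and 312 in E59. The libraries high in Chat were thus unlike in makeup. E59 had Chat, Slc18a3 and Slc5a7 with little Lhx8 and Ngfr, and E249 had the most Slc5a7 beside Chat. E249 was the lowest of the 5 in Chat (6.72 CPM), and its 70.9 CPM of Slc5a7 was below E61, E68 and E207. Isl1 (268 reads per 100 of Chat) and Slc10a4 (124) were also highest in E249, whereas Six3 (23.2) and Gbx2 (1.22) were lowest there. As shares with Chat, only the interval of Isl1 in E249 lay apart from all others. That of Slc10a4 overlapped E68 and E207, and that of Six3, on 19 reads, overlapped every other library. Gbx2, on 1 read, overlapped E61, E68 and E59.

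**Figure D3:**
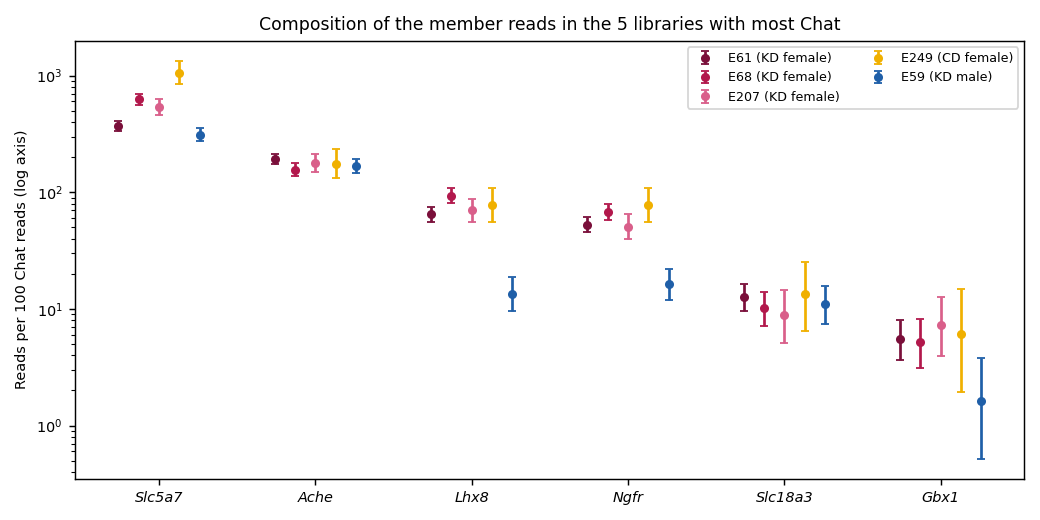
Reads of 6 members per 100 reads of Chat (vertical axis, logarithmic) in the 5 libraries with most Chat, with exact binomial 95% intervals for counting error. Slc18a3 and Ache have overlapping intervals in all 5, while E59 lies below the other 4 in Lhx8 and Ngfr, at 13.5 and 16.4.

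Other genes of the pathway were read from lists of named genes. Over all genes, 0.0447% were called in females and 0% in males, which stands beside each count of calls below. Of 19 genes of choline supply and acetylcholine handling, 16 were tested, and 0 were called in females or in males, with 2 and 3 at an unadjusted p under 0.05, beside 11.4% and 3.56% of all genes. In females 11 were higher and 5 lower, with a median log2 fold change of 0.09 beside 0.01 over all genes. The choline transporter-like genes Slc44a1 and Slc44a2 had log2 fold changes of 0.00 (SE 0.161) and 0.11 (SE 0.129), and Slc44a3 was not tested. Slc10a4, a transporter of cholinergic and monoaminergic vesicles, followed the members, at 12.7 CPM in E61, 14.1 CPM in E68, 11.8 CPM in E207, 8.36 CPM in E249 and 4.76 CPM in E59, and at most 0.447 CPM elsewhere. Slc10a4 thus had the same 5 highest libraries as Chat.

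Of 18 acetylcholine receptor genes, 16 were tested and 0 were called in either sex. An unadjusted p under 0.05 was found for 6 in females and 1 in males, beside 11.4% and 3.56% of all genes. In females 5 were higher and 11 lower (median -0.22). The muscarinic receptors Chrm1, Chrm2 and Chrm3 had log2 fold changes of -0.31 (SE 0.172), -0.13 (SE 0.306) and -0.76 (SE 0.261, edgeR adjusted p = 0.263). Chrm3, which is found on cortical neurons, was at 37.3 CPM in E61, 29.9 CPM in E68, 35.8 CPM in E207 and 34.6 CPM in E249, below every other library, the next lowest being E64 at 44.5 CPM. The lowest levels of Chrm3 were thus in 4 of the 5 libraries with most Chat, E59 having 63.9 CPM.

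Of 11 genes of cholinergic and ventral forebrain lineage, 9 were tested and 0 were called in either sex. An unadjusted p under 0.05 was found for 4 in females and 0 in males, beside 11.4% and 3.56% of all genes. In females 8 of the 9 were higher (median 0.80). Isl1, which acts with Lhx8 in cholinergic neurons of the forebrain and is also made by striatal neurons, was at 13.7 CPM in E61, 19.5 CPM in E68, 19.1 CPM in E207, 18.0 CPM in E249 and 7.84 CPM in E59, and at most 0.653 CPM elsewhere (E58). Nkx2-1, the factor of the medial ganglionic eminence from which forebrain cholinergic neurons arise, was at 2.17, 2.67, 1.77, 0.901 and 0.609 CPM in that order and at most 0.181 CPM elsewhere. Gbx2 had 1.86 CPM in E61, 1.46 CPM in E68 and 1.91 CPM in E207, but only 1 read in E249 and 4 in E59. Gbx2 was thus high in the 3 KD females and near the floor of counting in E249 and E59.

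Of 13 neurotrophins and their receptors, all were tested and 0 were called in either sex. An unadjusted p under 0.05 was found for 1 in females and 1 in males, beside 11.4% and 3.56% of all genes. In females 7 were higher and 6 lower, with a median of 0.00. Between KD and CD females, Bdnf differed by -0.66 on the log2 scale (SE 0.265, edgeR adjusted p = 0.340) and Ntf3 by 0.42 (SE 0.558). Bdnf, a neurotrophin made by cortical neurons, was at 41.9 CPM in E61, 34.3 CPM in E68, 28.6 CPM in E207, 36.5 CPM in E249 and 34.5 CPM in E59, and at 46.1 CPM or more elsewhere. The libraries with most Chat and Ngfr thus had the least Bdnf.

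The genes whose pattern was most like that of each member over the 20 libraries were described by Pearson's r of log2 CPM. These values rest on the 5 high libraries, share library and depth, and are given without a test. Of the 3 genes most like each member, those reported for Chat were Rgs9 (r = 0.969, Spearman's rho = 0.818), a regulator of G-protein signalling in the striatum, and Isl1 (r = 0.964), and those for Lhx8 were AI606473 (r = 0.991) and the dopamine receptor gene Drd3 (r = 0.978). Slc18a3 was near to Prkch (r = 0.948) and Slc10a4 (r = 0.945), Slc5a7 to Isl1 (r = 0.981), AI606473 and Tac1, and Gbx1 to AI606473 (r = 0.961), Rbms3 and P2ry1.

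Ngfr was nearest to Abat, a GABA-degrading enzyme (r = 0.952), Lhx6 and Dhdh. Ache had another set of neighbours, Ndrg4, Acly and Mmp15 (r from 0.924 to 0.926). Acly makes the cytosolic acetyl-CoA from which acetylcholine and lipids are built. Within series 1 and series 2, r was 0.985 and 0.949 for Chat with Isl1, and 0.821 and 0.965 for Ache with Ndrg4. Between members, r was 0.951 for Chat with Lhx8 and 0.931 for Chat with Slc18a3, and 0.675 for Chat with Ache.

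Markers of striatal spiny neurons, the main output cells of the striatum, were high in the same libraries. The summed level of 16 such genes was 3027 CPM in E61, 2701 CPM in E68, 3460 CPM in E207, 4196 CPM in E59 and 1251 CPM in E249, and from 277 to 736 CPM elsewhere, E58 being the highest of these. E61, E68, E207 and E59 were among the 5 highest libraries for 16 of 16 genes, and E249 for 10 of 16. The dopamine receptor Drd2 was at 13.3, 8.70, 17.7, 24.0 and 3.44 CPM in that order, and the adenosine receptor Adora2a at 48.9, 23.9, 33.2, 72.3 and 5.49 CPM.

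In the test of KD against CD females all 16 striatal genes were higher, with a median log2 fold change of 2.10. None was called, and 13 had an unadjusted p under 0.05, beside 11.4% of all genes. The median of the 6 tested members was also 2.10, over values from 0.84 to 2.97, and both medians rest largely on the same high libraries. E249 had more Slc5a7 than E59 at less of the striatal sum. E59, with the highest striatal sum, had less Lhx8 and Ngfr than the other 4. When the mean score of the striatal markers was added to the fit as a covariate, the difference in females was -0.28 for Chat, -0.45 for Slc18a3, -0.88 for Slc5a7 and -2.16 for Lhx8, and 0.63 for Ngfr and 0.42 for Ache, and none was called. The score was highest in the libraries with most Chat, so this fit cannot separate the score from the members. The part of striatal RNA in the levels of the members was not tested.

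**Figure D4:**
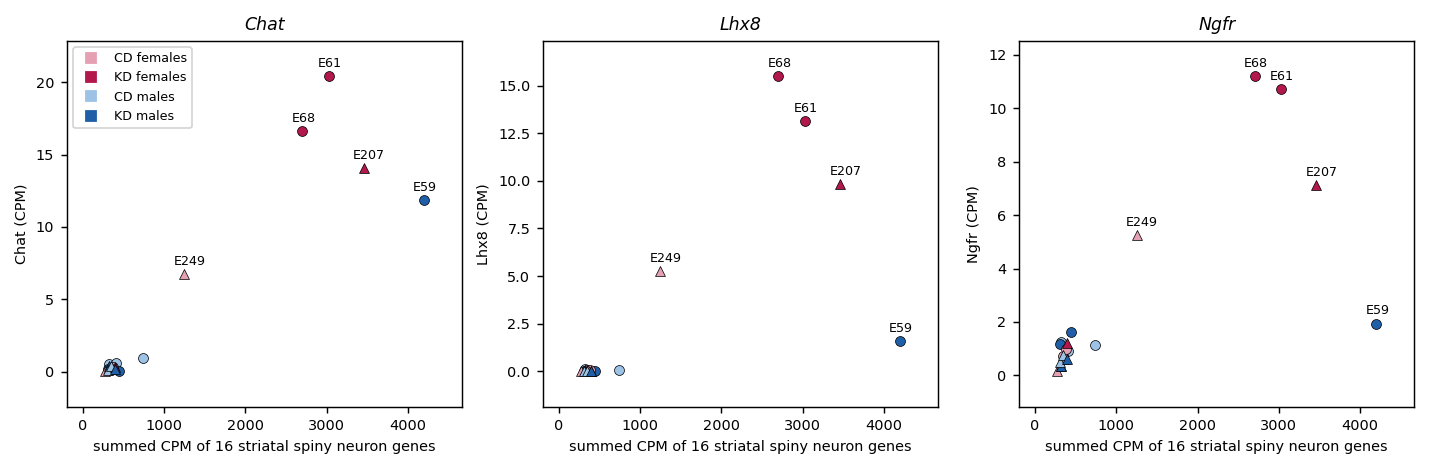
Chat, Lhx8 and Ngfr in CPM (vertical axes, linear) against the summed CPM of 16 striatal spiny neuron genes (horizontal axes), 1 point per mouse, colours for the groups, circles for library series 1 and triangles for series 2. In each panel 15 mice lie at or below 736 CPM of striatal genes, and E59 has the highest striatal sum, 4196 CPM, with 1.60 CPM of Lhx8 and 1.94 CPM of Ngfr.

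Markers of cortical excitatory neurons moved the other way. Their sum over 12 genes was from 510 to 1315 CPM in CD females, lowest in E249, from 524 to 1029 CPM in KD females, highest in E227, from 1033 to 1361 CPM in CD males and from 890 to 1173 CPM in KD males. In KD against CD females 11 of the 12 were lower, with a median log2 fold change of -0.93. Of the 12, 0 were called and 7 had an unadjusted p under 0.05, beside 11.4% of all genes. In E59, which had the highest striatal sum, the cortical sum was 1139 CPM.

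Markers of other regions and cells in which Chat is known to be expressed were read in the same way. The sum of 6 markers of the cortical interneurons with vasoactive intestinal peptide was from 55.6 to 112 CPM in KD females, from 97.3 to 152 CPM in CD females, from 62.4 to 145 CPM in KD males and from 108 to 137 CPM in CD males. Their defining gene Vip was lowest in E207 (21.7 CPM), E61 (26.2 CPM), E68 (28 CPM), E249 (34.2 CPM) and E59 (41.7 CPM), and at 63.5 CPM or more elsewhere, so the libraries with most Chat had least Vip. Calb2, another gene of that list, did not follow Vip, at 48.1 CPM in E249, 38.3 CPM in E68, 37.0 CPM in E61, 18.7 CPM in E207 and 3.58 CPM in E59, and from 5.12 to 38.4 CPM elsewhere. In KD against CD females 2 of the 6 genes were higher and 4 lower. Of the 6, 0 were called and 1 had an unadjusted p under 0.05, beside 11.4% of all genes. The sum of 6 medial habenula markers was between 78.6 and 146 CPM over all libraries, and its highest value was in E256. The sum of 7 hypothalamic markers was higher in most of the libraries with much Chat, at 21.3 CPM in E61, 12.5 CPM in E207, 6.89 CPM in E68, 5.49 CPM in E249 and 3.43 CPM in E59. It was also 26.2 CPM in E64 and 4.76 CPM in E254, both low in Chat, and from 1.29 to 2.76 CPM in the other 13. The defining genes Hcrt, Pmch and Agrp were below 1 CPM in every library, and most of the sum in E61, E207 and E64 was Trh, at 13.045, 9.64 and 25.03 CPM, a gene named here after its values were seen. Avp and Oxt, likewise named after their values were seen, reached 5.09 and 2.56 CPM among KD females. Their medians in that group were 0.331 and 0.764 CPM, and the lowest value of each was 0. In the other groups they were at most 0.164 and 0.181 CPM.

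Choroid plexus markers were raised in E59, to a sum of 2371 CPM over 8 genes against 63.0 CPM or less in every other library. Meningeal and vascular fibroblast markers summed to 518 CPM in E64, 329 CPM in E249, 292 CPM in E68, 284 CPM in E61, 283 CPM in E254 and 227.2 CPM in E207, with E264 between these last, and from 117 to 204 CPM in the other 13, E59 among them at 159.8 CPM. In KD against CD females 8 of 8 of these genes were higher, with a median log2 fold change of 0.32. Of the 8, 0 were called and 0 had an unadjusted p under 0.05, beside 11.4% of all genes. Oligodendrocyte markers summed to between 1296 and 4007 CPM, with KD females from 3015 to 3821 CPM and CD females from 2512 to 3044 CPM. The part of these cell types in the levels of the members was not tested.

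**Figure D5:**
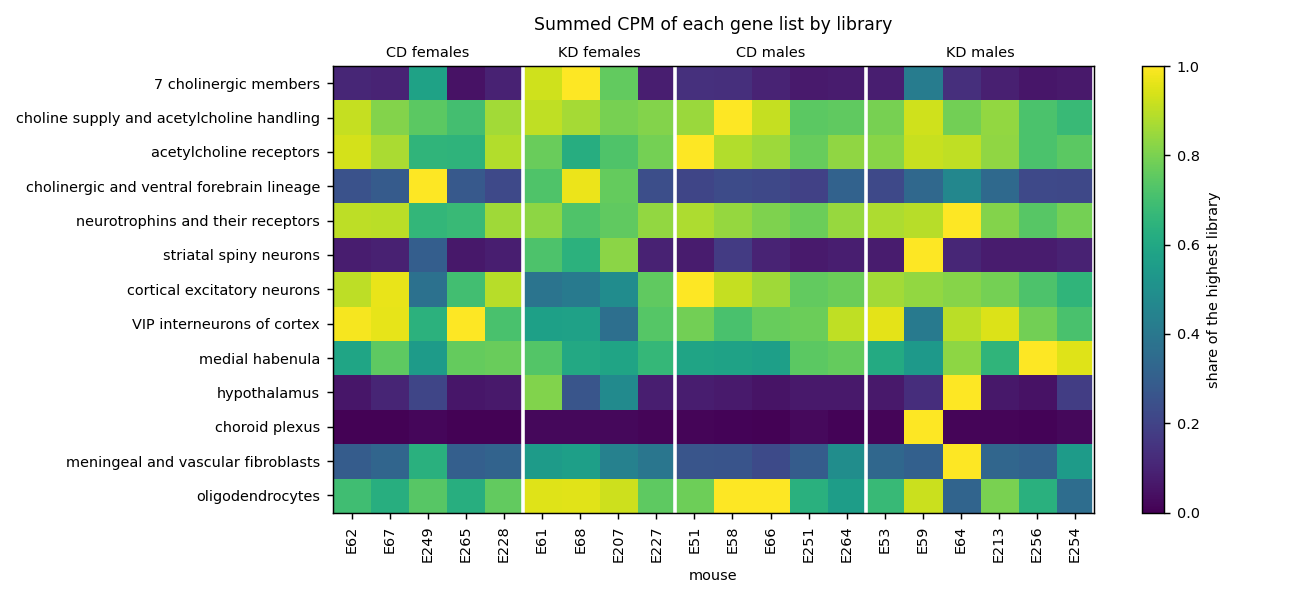
Summed CPM of the 7 cholinergic members and of 12 other gene lists (vertical axis) in each of the 20 mice (horizontal axis, ordered by group), coloured from 0 to 1 as the share of the list's highest library. The members are brightest in E61, E68 and E207, with E249 and E59 next, the striatal list is brightest in E59, the cortical excitatory list is dark in E249, E61, E68 and E207, and the choroid plexus list is bright in E59 alone.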

How the data were processed

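Cortex RNA of 20 APOE4 mice was sequenced as stranded total RNA, and per the labels the authors aligned reads to mm10 with STAR and deposited unnormalized counts of reads per gene for each library. Versions, gene annotation and the strand counted are not given in the sources used here. Groups came from the labels, as did the library numbers that define the 2 series. The 7 members and all gene lists were chosen with earlier results of these data known.

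From the deposited counts, CPM and log2 CPM (prior count 2) were computed, with RPKM from GENCODE M21 exon lengths. Tests were run in R 4.3.3 with edgeR 4.0.16 (filterByExpr, upper-quartile scaling, robust quasi-likelihood F test, groups plus library series) on 15660 genes, called at FDR 0.1 and 1.5-fold. Upper-quartile scaling follows the study. Its RUVg step, whose factors are not stated, was written anew and used as an alternative, with the likelihood ratio test, DESeq2 1.42.0, other scalings, filters and thresholds, each sex or series alone, a striatal score, and libraries left out. Gbx1 was tested by exact permutation. Named genes are the members, the first 3 of each list, called list genes (there were none), the 3 genes most like each member, and Xist, Ddx3y and Apoe for the labels. Mouse Apoe was between 1.33 and 3.34 CPM. P-values of the fits weigh a difference between groups against the estimated spread between mice within groups. Those of the permutation test rank the observed difference among all splits of the mice. Some genes that this rule selects are not reported here.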

Additional observations from a re-analysis of the deposited data

Results flagged for a closer look

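Within groups of 4 to 6 mice, the gap between the most extreme library and its neighbour was compared with the whole range of the group, using Dixon's limit. Of 28 pairs of a member and a group, 14 were past it. The limit is set for about 1 in 20 by chance, or 1.4, in normally distributed values. Groups of Lhx8 and Gbx1 with ties at 0 reads do not meet that condition. The share of all genes past the limit was not computed, so 14 cannot be read as particular to the members. These pairs came from 4 mice, and since the members vary together they are not independent.

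CD female E249 was the highest of its group, with a gap of 0.763 of the range for Chat, 0.728 for Slc18a3, 0.76 for Slc5a7, 0.886 for Lhx8 and 1 for Gbx1. KD female E227 was the lowest of its group, with a gap of 0.906 for Chat, 0.924 for Slc5a7, 0.911 for Lhx8 and 0.903 for Gbx1. KD male E59 was the highest of its group, with a gap of 0.705 for Chat, 0.722 for Slc18a3, 0.862 for Slc5a7 and 0.816 for Lhx8. In CD males the gap of 1 for Gbx1 in E58 came from a single read. Ache and Ngfr had no library past the limit in any group.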

How the results depend on the processing

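No paired analysis was possible because the replicate numbers are animal numbers and none is shared between groups. For KD against CD females, where 0 members were called, the count was 2 with 2 RUVg factors (247 of all genes), 4 in series 1 alone (865 of all genes), 1 with the likelihood ratio test (220 of all genes) and 1 with DESeq2 (253 of all genes). It was 7 without E227 and E249 (1953 of all genes) and 7 without E59 as well (2045 of all genes). Leaving out 1 mouse gave 0 to 6, with 6 without E249 (1046 of all genes) and 3 without E227 (906). For the interaction the count was 1 in series 1 alone (14 of all genes), 3 without E227 and E249 (568), 6 without E59 as well (976), and 0 to 0 with 1 mouse left out. For females against males it was 1 with the striatal score (14 of all genes), 1 in series 1 alone (76), 3 with the likelihood ratio test (286), 1 without E227 and E249 (516) and 5 without E59 as well (729). Leaving out 1 mouse gave 0 to 5, with 5 without E59 (204 of all genes), 4 without E227 (813) and 2 without E62 (87). In males it stayed at 0 in every alternative run. Counts without E227, E249 or E59, and those of series 1, which holds neither E227 nor E249, are no independent support.

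Directions turned in females only with the striatal score, to -0.28 for Chat, -0.45 for Slc18a3, -0.88 for Slc5a7 and -2.16 for Lhx8 on the log2 scale, and never for females against males. In males the score gave -1.01 for Chat, -0.93 for Slc18a3, -0.10 for Slc5a7, -2.71 for Lhx8 and -0.14 for Ngfr. Without E227, E249 and E59 the values in males were -1.41 for Chat, -1.49 for Slc18a3, -0.26 for Slc5a7, -1.33 for Lhx8 and -0.017 for Ngfr. Series 2 alone gave -3.05 for Slc18a3 and -0.52 for Ngfr in males, and 2 RUVg factors gave -0.075 for Ngfr. With 1 mouse left out the male values ran from -1.52 to 2.23 for Chat, -1.51 to 1.39 for Slc18a3, -0.45 to 1.93 for Slc5a7, -0.14 to 0.031 for Ache, -1.47 to 3.42 for Lhx8 and -0.066 to 0.27 for Ngfr.

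The interaction of Slc5a7, -0.13, became 0.27 with no series term, 0.86 and 1.64 with 1 and 2 RUVg factors, 3.24 and 0.16 in series 1 and 2 alone, 4.10 without E227 and E249 and 5.95 without E59 as well. That of Lhx8, 0.05, became -0.41 in series 2 alone, -0.81 with the likelihood ratio test and -0.75 with DESeq2. With 1 mouse left out the interaction ran from -0.32 to 4.78 for Chat, -0.95 to 3.75 for Slc5a7 and -0.76 to 4.99 for Lhx8. Beyond the libraries left out, the cause of these changes was not tested. Each sex fitted alone left Chat, Slc18a3 and Lhx8 untested in males. With at least 10 counts in every library, members with lower counts had no value. Depth limits the 15 libraries low in Chat, where most members had few reads.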
